A study of Mus musculus with 27 samples.

Results

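The acute phase response genes described here are 10 genes of liver-secreted plasma proteins and innate defence proteins. They are Saa1, Saa2 and Saa3 (serum amyloid A proteins, apolipoproteins of high density lipoprotein during inflammation), Orm1 and Orm2 (orosomucoids, lipid- and drug-binding plasma glycoproteins), Hp (haptoglobin, which binds free haemoglobin), Hpx (hemopexin, which binds free haem), Lcn2 (lipocalin 2, which sequesters iron-loaded bacterial siderophores), Apcs (serum amyloid P, a pentraxin) and Itih4 (an inter-alpha-trypsin inhibitor heavy chain). They were chosen by symbol, and all 10 were found in each of 3 expression tables, among 25859 genes of the liver table and 27178 genes of each organoid table. Messenger RNA had been sequenced in 27 mouse libraries, 9 per table, in groups of 3. The liver table compares healthy mice, mice with carbon tetrachloride (CCl4) induced fibrosis, and CCl4 mice treated with Sargassum japonica, a brown seaweed given as an extract. In the CCl4 organoid table, 3 groups of liver organoids are set side by side: one derived from animals that had received mineral oil as vehicle, one derived from fibrotic CCl4 animals, and one derived from fibrotic animals and cultured with the extract for 24 h. In the TGF-β1 table all organoids came from healthy livers, and they were left untreated, exposed for 24 h to the profibrotic cytokine TGF-β1, or exposed to it for 24 h before 24 h with the extract. All organoids grew in Matrigel and were kept in differentiation medium before treatment. The labels give no strain, age or dose, do not say whether the healthy mice of the liver table received oil, and do not say when organoids given TGF-β1 alone were harvested. They also do not say that the 3 libraries of a group came from separate animals or cultures, so the p-values here speak of library-to-library spread, and that spread may be technical.

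The acute phase response is the change in plasma protein synthesis that follows infection or tissue injury. Interleukin-6 family cytokines act through Il6ra, the shared receptor chain Il6st, the kinase Jak1 and the factor Stat3, and interleukin-1 and tumour necrosis factor act through NF-κB; C/EBP factors join both on many promoters. Hepatocytes are the main source of most of these proteins, while Lcn2 and Saa3 are also made by epithelia, macrophages and, for Lcn2, neutrophils. So-called negative acute phase genes, such as Ttr and Rbp4, encode plasma proteins whose synthesis drops in the response.

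In the mouse genome (GRCm38, the mm10 build) all 10 are protein-coding genes. The 3 Saa genes lie together on chromosome 7, Saa3 at 46711998 to 46719615, Saa1 at 46740497 to 46743181 and Saa2 at 46751833 to 46754313, with Saa4 between Saa3 and Saa1. Orm1 (63344556 to 63348163) and Orm2 (63362449 to 63365877) lie on chromosome 4 with Orm3 between them. Hp is on chromosome 8 (109575128 to 109579172), Hpx on chromosome 7 (105591611 to 105600116), Lcn2 on chromosome 2 (32384637 to 32387739), Apcs on chromosome 1 (172893961 to 172895054) and Itih4 on chromosome 14 (30886476 to 30901986). Saa1 and Saa2 transcripts were 94.4% identical over 606 aligned bases and Orm1 and Orm2 transcripts 91.0% over 775. Reads of such near copies can be assigned to either, so the Saa1 and Saa2 values, and the Orm1, Orm2 and Orm3 values, are uncertain as separate measurements. Saa3 was 76.3% identical to Saa1.

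The promoters of Lcn2, Saa3 and Saa2 are shown because Lcn2 and Saa3 were the members that rose in CCl4 liver and that were lowest together in a pair of organoid libraries, while Saa2, a paralogue of Saa3 in the same cluster, was not called in CCl4 liver. The sequences are those of RefSeq for GRCm38.p6 and run 5′ to 3′ towards the transcription start, as chr2:32387798-32387989 (minus strand) for Lcn2, chr7:46715701-46715926 (minus strand) for Saa3 and chr7:46751583-46751789 (plus strand) for Saa2. They hold the part of the 250 bases before the start that lies before every GENCODE basic protein-coding transcript of the gene. The RefSeq span of Saa3 given above reaches further upstream, so its window lies before the start used here but inside that span. Capitals mark matches, on either strand, to a C/EBP motif (TTNCNNAA) or an NF-κB motif (GGG and CC with any 5 bases between them).
Lcn2: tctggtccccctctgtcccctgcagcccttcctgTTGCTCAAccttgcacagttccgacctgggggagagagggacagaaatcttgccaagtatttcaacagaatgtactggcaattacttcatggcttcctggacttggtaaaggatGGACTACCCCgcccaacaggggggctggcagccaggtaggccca
Saa3: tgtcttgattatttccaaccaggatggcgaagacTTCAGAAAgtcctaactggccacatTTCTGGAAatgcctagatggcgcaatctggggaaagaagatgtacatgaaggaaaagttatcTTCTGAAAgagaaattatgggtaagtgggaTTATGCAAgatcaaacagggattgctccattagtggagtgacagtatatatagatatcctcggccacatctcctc
Saa2: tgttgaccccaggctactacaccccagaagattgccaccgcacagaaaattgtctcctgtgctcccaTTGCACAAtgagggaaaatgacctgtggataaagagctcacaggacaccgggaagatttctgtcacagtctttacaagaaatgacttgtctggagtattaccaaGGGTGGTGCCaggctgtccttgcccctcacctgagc
In the 250-base windows, Lcn2 had 1 C/EBP match at -216 to -209 and 1 NF-κB match at -102 to -93, counted from the start. Saa3 had 4 C/EBP matches, at -216, -191, -129 and -99, and no NF-κB match in these letters. Saa2 had 1 C/EBP match (-183 to -176) and 1 NF-κB match (-79 to -70). Of 32851 mouse promoters of the same length, 36.8% held the C/EBP motif, 45.8% the NF-κB motif and 13.1% both. The STAT motif TTCNNNGAA, held by 7.02% of promoters, matched in the windows of Apcs and Itih4 and in no other of the 8 members with a RefSeq promoter sequence. Saa1, whose window is 95.6% identical to that of Saa2, had 2 C/EBP matches and 1 NF-κB match. Orm1 and Hp were not among the promoter sequences.

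Depth was 44.5 to 64.8 M reads per library. Expression is given as CPM, reads per 1 M reads of the authors' effective library size. A difference is called where limma's adjusted p is under 0.05. Each table carries its own normalization, so levels are not tested between tables; a joint fit of 2 tables was used only to compare differences made within each. Markers of the labelled tissues were present: 10 of 10 hepatocyte markers reached 1 CPM in each liver group, with a summed level of 98943 to 146175 CPM, and cholangiocyte markers (Krt7, Krt19, Epcam and 4 more) summed to 4672 to 10503 CPM in the organoids against 43.3 to 418 CPM in liver. Hepatocyte markers summed to 1458 to 5433 CPM in the CCl4 organoid table and to 202 to 298 CPM in the TGF-β1 table, where Cps1 and Cyp2e1 had no read in any of the 9 libraries. The members took 1.26 to 1.72% of the reads of a liver library, 0.00298 to 0.0360% of an organoid library of the CCl4 table, and, with TGF-β1 as the treatment under study, 1.54 to 1.88% in 7 libraries and 0.0390% and 0.0290% in the other 2. Those 2, replicate 3 of the untreated organoids and replicate 3 of those given TGF-β1 and the extract, stood apart from the rest of their table, as mineral oil replicate 1 did from its group, and their values are given again without them where a call changed.

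Per kilobase of transcript, the order of the members in healthy liver was Hpx, Hp, Orm1, Itih4, Saa1, Apcs, Saa2, Orm2, Lcn2 and Saa3. Hpx (3734 ± 303 CPM per kb, SD, n = 3) and Hp (3419 ± 443) overlapped and ranked 18th and 22nd of 20809 genes. Saa3 (6.75 ± 2.02 CPM per kb) ranked 5520th. Neighbours in this order whose libraries overlapped were Hpx and Hp, Saa1 and Apcs, and Orm2 and Lcn2; the highest Saa2 library (116 CPM per kb) lay just under the lowest Apcs library (119), and the lowest (26.3) below all 3 Orm2 libraries (29.9 to 49.9), so that Saa2 and Orm2 overlapped. Lcn2 changed its place, from rank 2099 in healthy liver to 234 in CCl4 liver and 552 with the extract.

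**Figure D1:**
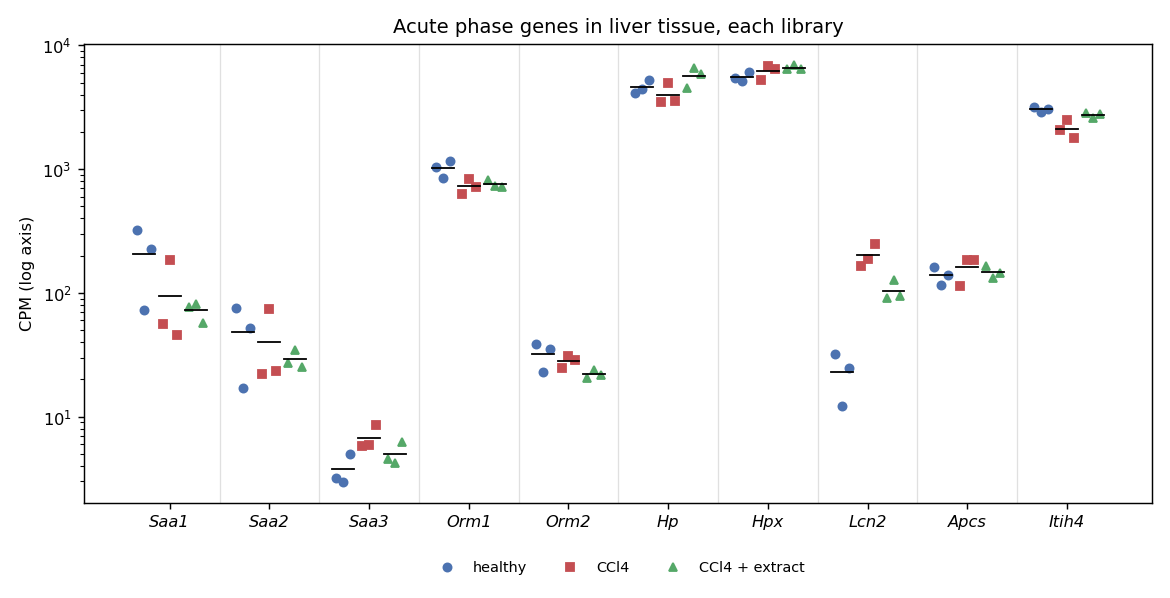
Each point is the CPM of 1 liver library on a log axis, for the 10 genes and 3 groups, and the bar is the mean of 3. Lcn2 stands out with widely separated groups, at 12.2 to 32.2 CPM in healthy, 166 to 249 in CCl4 and 91.0 to 128 in CCl4 liver with the extract. The groups of Itih4 are also separated, but by less, at 2903 to 3188, 1779 to 2498 and 2575 to 2867 CPM. Those of Hp, Hpx and Apcs lie close together.

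Fibrosis in liver tissue was accompanied by a steep rise of Lcn2, a smaller rise of Saa3 and lower levels of Orm1 and Itih4, while the other 6 members did not pass the test. Lcn2 was at 32.2, 12.2 and 24.8 CPM in the 3 healthy livers and at 166, 189 and 249 CPM in the 3 CCl4 livers. Every CCl4 library was above every healthy one. The mean went from 23.1 ± 10.1 to 200.98 ± 42.9 CPM (SD, n = 3 each), 9.26-fold higher (log2 difference 3.21 ± 0.29, SE, adjusted p = 3.28e-06). Saa3 was far lower in level, at 3.23, 2.98 and 5.03 CPM in healthy and 5.77, 5.87 and 8.58 CPM in CCl4 liver. Its groups did not overlap either, and it rose 1.81-fold (log2 difference 0.86 ± 0.23, adjusted p = 0.00877). In bulk tissue, a change in the number of cells of a type and a change in RNA per cell cannot be told apart.

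Orm1 was at 1051, 843 and 1168 CPM in healthy liver and 632, 830 and 715 CPM in CCl4 liver, and it fell by 0.49 ± 0.15 on the log2 scale (adjusted p = 0.0143). The lowest healthy library lay just above the highest CCl4 library. Itih4, an inhibitor heavy chain made by hepatocytes, was at 3188, 2903 and 3090 CPM in healthy and 2078, 2498 and 1779 CPM in CCl4 liver, and fell by 0.54 ± 0.16 on the log2 scale (adjusted p = 0.0124). These 2 calls rest on the authors' scaling. With the read totals alone as library sizes the median of all genes moves up by 0.38 on the log2 scale, and the differences became -0.10 for Orm1 (adjusted p = 0.482) and -0.16 for Itih4 (adjusted p = 0.282), while Hpx (0.52) and Apcs (0.58) passed the test as higher. In all, 4 members were then called higher and none lower, and Saa2, Orm2 and Hp, not called either way, changed sign. Without CCl4 replicate 1 the adjusted p of Orm1 was 0.0711.

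Saa1 had the largest standard error of the 10. Its healthy livers were at 321, 73.3 and 227 CPM and its CCl4 livers at 55.7, 184 and 46.1 CPM, so that 1 library of each group lay within the other group's range. The mean was 207 ± 125 in healthy and 95.1 ± 76.7 CPM in CCl4 liver (log2 difference -1.17 ± 0.54, adjusted p = 0.0845). Saa2 had its lowest healthy and its highest CCl4 value in the same 2 libraries, at 75.8, 17.2 and 52.2 CPM in healthy and 22.1, 74.7 and 23.2 CPM in CCl4 liver (log2 difference -0.28 ± 0.52, adjusted p = 0.674). The 2 genes share sequence and were each other's nearest gene in the liver table, so they are not independent evidence. Leaving out healthy replicate 2 gave a Saa1 difference of -1.80 (adjusted p = 0.00756) and leaving out CCl4 replicate 2 gave -1.79 (adjusted p = 0.00768). Those 2 libraries also stood out across the members: healthy replicate 2 was the lowest of its group for 9 of 10, and CCl4 replicate 2 the highest of its group for 8 of 10.

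The scavengers of haemoglobin and haem were abundant in all 9 livers. Hp ranged from 4108 to 5262 CPM in healthy and from 3490 to 4979 CPM in CCl4 liver, with overlapping groups (log2 difference -0.21, 95% interval -0.68 to 0.26). Hpx ranged from 5196 to 6091 and from 5256 to 6819 CPM (0.14, interval -0.28 to 0.55). Apcs was at 116 to 161 and 114 to 186 CPM (0.20, interval -0.20 to 0.60) and Orm2 at 23.2 to 38.7 and 24.6 to 30.9 CPM (-0.18, interval -0.55 to 0.19). None of these 4 was called, and each interval includes a change of the size called for Orm1. In all, 2 of 10 members were higher and 2 lower, against 54.2% of the 15037 genes tested (28.7% higher, 25.5% lower). The share of members called is near that background, and their median difference was -0.20 against 0.00 for all genes. Groups did not overlap for 59.4% of all genes.

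The other listed genes behaved unevenly. Of 20 further genes listed by name as positive acute phase genes, 2 rose and 10 fell. Those with the smallest p were Il1rn (the interleukin-1 receptor antagonist, 2.08 to 8.26 CPM, log2 difference 1.96), Saa4 (642 to 183 CPM, -1.76) and Crp (C-reactive protein, 653 to 327 CPM, -1.02). With the read totals alone, 5 rose and 9 fell. Whether each listed gene, Saa4 and Crp among them, is induced by the response in these mice was not tested. Fga, Fgb and Fgg, the 3 chains of fibrinogen, fell by 0.98, 0.89 and 0.87 on the log2 scale, and Cd14 was the other gene that rose (3.91 to 11.2 CPM); these 4 were picked after their values were seen. Of 7 negative acute phase genes, Serpina6 (cortisol-binding globulin, -1.15) and Rbp4 (retinol binding protein, -0.48) fell and Ahsg (fetuin A, 0.71) rose. With the read totals alone 2 of the 7 rose and 1 fell.

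The upstream cytokine Il6 was barely read, with 4, 8 and 6 reads in the 3 healthy, 3 CCl4 and 3 extract-treated livers, and did not enter the test. Il1b was at 2.37 and 2.49 CPM in healthy and CCl4 liver (adjusted p = 0.888). Of 6 ligands tested 4 rose and none fell; Clcf1, an interleukin-6 family cytokine, went from 0.390 to 1.95 CPM (log2 difference 2.24) and Il1a from 3.34 to 6.55 CPM (0.96). Lif, another of that family, had no read in the healthy livers and 153 reads in the CCl4 livers. It could enter the test only through the groups in which it is high, so its rise is a description. Of 10 receptors 2 rose and 5 fell, among them Il6ra (72 to 32 CPM), Lifr (452 to 163 CPM) and Il1rap (log2 difference -1.25). Of 14 signal transducers and factors none rose and 9 fell: Cebpa by 1.39, Cebpb by 1.33, Hnf4a by 1.10, Stat3 by 0.56 and Cebpd by 0.55 on the log2 scale were among them, whereas Socs3, the feedback inhibitor of Stat3, was at 4.65 and 4.07 CPM (adjusted p = 0.544). That direction depends on the scaling, since with the read totals alone 3 of the 14 rose and 4 fell, and 4 of the 10 receptors rose and 3 fell. Among genes that clear the proteins, Hmox1 (haem oxygenase 1, 18.7 to 48.8 CPM) and Slc22a17 (a lipocalin 2 receptor, 1.30 to 2.09 CPM) rose and Cd163 (the haptoglobin-haemoglobin receptor of macrophages, 49.2 to 29.1 CPM) and Lrp1 (the hemopexin-haem receptor, 1064 to 762 CPM) fell. Slc22a17 was picked after its values were seen. With the read totals alone 2 of these 5 genes rose and none fell.

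Markers of other cells moved with these results. Neutrophil markers summed to 4.38 to 7.62 CPM in healthy liver and to at most 29.5 CPM in CCl4 liver. Each CCl4 library was above all healthy ones, and 9 of 10 markers tested were higher. All 11 on the list had reads, but only 2 reached a mean of 1 CPM in healthy liver and 5 in CCl4 liver. Macrophage markers summed to 357 to 480 and 691 to 837 CPM (8 of 10 higher), cholangiocyte markers to 43.3 to 63.0 and 190 to 418 CPM (6 of 7 higher) and stellate cell markers to 209 to 254 and 727 to 901 CPM (6 of 7 higher). Hepatocyte markers summed to 125164 to 136535 in healthy and 98943 to 108800 CPM in CCl4 liver (6 of 10 lower). Their part in the differences of Lcn2, Saa3, Orm1 and Itih4 was not tested.

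With the extract, Lcn2 was lower than in CCl4 liver but above healthy liver, and no other member passed the test against CCl4 liver. Lcn2 was at 91.0, 128 and 95.1 CPM in CCl4 liver with the extract, all below the 166, 189 and 249 CPM of CCl4 liver and all above the healthy livers. The mean went from 200.98 ± 42.9 to 105 ± 20.3 CPM, a ratio of 0.522 (log2 difference -0.94 ± 0.29, adjusted p = 0.0414, where 19.1% of all genes were called, 9.33% higher and 9.76% lower). This call is a narrow one: it held under 4 of 12 alternative settings. It was lost with the replicate block (adjusted p = 0.0505), without a filter on low values (0.0558) and without any 1 of the 6 libraries (0.0534 to 0.137), although the difference stayed between -1.17 and -0.77 in all 12. Against healthy liver, Lcn2 in CCl4 liver with the extract was still 4.84-fold higher (log2 difference 2.27 ± 0.29, adjusted p = 0.000112, where 21.1% of all genes were called higher).

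Itih4 lay between the other 2 groups, at 2867, 2575 and 2802 CPM, above every CCl4 library and below every healthy one. For all genes, groups did not overlap for 42.4% between CCl4 liver with and without the extract and for 50.2% between CCl4 liver with the extract and healthy liver. The Itih4 difference from CCl4 liver (0.39 ± 0.16, adjusted p = 0.112) and from healthy liver (-0.16 ± 0.16, adjusted p = 0.473) did not pass the test. Hp was at 4560, 6552 and 5930 CPM, with the first of these inside the range of CCl4 liver (log2 difference 0.51 ± 0.22, adjusted p = 0.122). Without CCl4 replicate 2 both were called higher with the extract, Hp by 0.68 (adjusted p = 0.0385) and Itih4 by 0.51 (adjusted p = 0.0327).

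Orm1 stayed at 815, 731 and 724 CPM, below the 3 healthy livers (log2 difference from healthy -0.42 ± 0.15, adjusted p = 0.0430) and overlapping CCl4 liver (0.07, interval -0.25 to 0.39). Orm2 was at 20.4, 24.0 and 21.7 CPM, all under the CCl4 range of 24.6 to 30.9. Its difference from CCl4 liver was not called (-0.35 ± 0.17, adjusted p = 0.182). It was called with the read totals alone (-0.58, adjusted p = 0.0173) and with only the 2 groups compared (adjusted p = 0.0496). The Orm2 difference from healthy liver was called (-0.52 ± 0.17, adjusted p = 0.0320) although 1 healthy library lay inside the treated range. Against healthy liver 34.8% of all genes were called and 13.6% were lower. With the read totals alone neither orosomucoid was called lower than in healthy liver (adjusted p = 0.116 for Orm1 and 0.0931 for Orm2). Leaving out any of 5 of the 6 libraries also ended the Orm1 call (0.0681 to 0.125), the exception being healthy replicate 2. Orm2 lost its call without healthy replicate 1 (0.121) or 3 (0.0952) or extract replicate 1 (0.108) or 3 (0.0826).

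Against healthy liver, the lists in CCl4 liver with the extract had 2 of 20 positive acute phase genes higher and 7 lower, 4 of 6 ligands higher, and 5 of 14 transducers and factors lower (2 with the read totals alone) with none higher.

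The amyloids were more even between livers given the extract, with Saa1 at 77.3, 81.6 and 57.5 CPM and Saa2 at 27.1, 34.8 and 25.3 CPM, and neither was called against CCl4 liver (adjusted p = 0.904 and 0.806) or healthy liver (0.0805 and 0.474). The Saa1 difference from healthy liver was -1.29 ± 0.54, and it passed the test without healthy replicate 2 (-1.92, adjusted p = 0.00938). Saa3 was at 4.53, 4.25 and 6.26 CPM, overlapping both other groups (log2 difference from CCl4 liver -0.42, interval -0.93 to 0.09). Apcs (133 to 165 CPM) and Hpx (6401 to 6971 CPM) were not called against either group.

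Among the other genes, 5 of the 20 on the positive acute phase list rose with the extract and 2 fell. Lbp (lipopolysaccharide binding protein) went from 93.1 to 187 CPM (log2 difference 1.03), Orm3 from 3.01 to 8.07 CPM (1.52) and Saa4 from 183 to 367 CPM (1.01). With the read totals alone 3 rose and 4 fell. Serpina6 (115 to 490 CPM) and Ttr (5871 to 9322 CPM) rose among 7 negative acute phase genes. Cebpb (27.8 to 57.7 CPM, log2 difference 1.06, adjusted p = 0.000573), Cebpa (129 to 196 CPM) and Nfkbia (36.9 to 52.6 CPM) rose among 14 transducers and factors, and none fell. With the read totals alone 2 of these 14 rose and 1 fell, and 2 of the 7 negative acute phase genes rose and 1 fell. Stat3 (adjusted p = 0.0773), Cebpd (0.118), Socs3 (0.426) and Il1b (0.765) were not called. Hepatocyte markers were higher for 6 of 10 (summed level 132049 to 146175 CPM), macrophage markers lower for 3 of 10, and neutrophil markers summed to 20.2 to 23.8 CPM, within the range of CCl4 liver. Cholangiocyte markers summed to 129 to 149 CPM, below the 190 to 418 CPM of CCl4 liver, and stellate cell markers to 480 to 587 CPM, below 727 to 901 CPM, with 2 of 7 called lower on each list (5 of the 7 stellate cell markers with the read totals alone). The part of these cells in the Lcn2 difference was not tested.

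**Figure D2:**
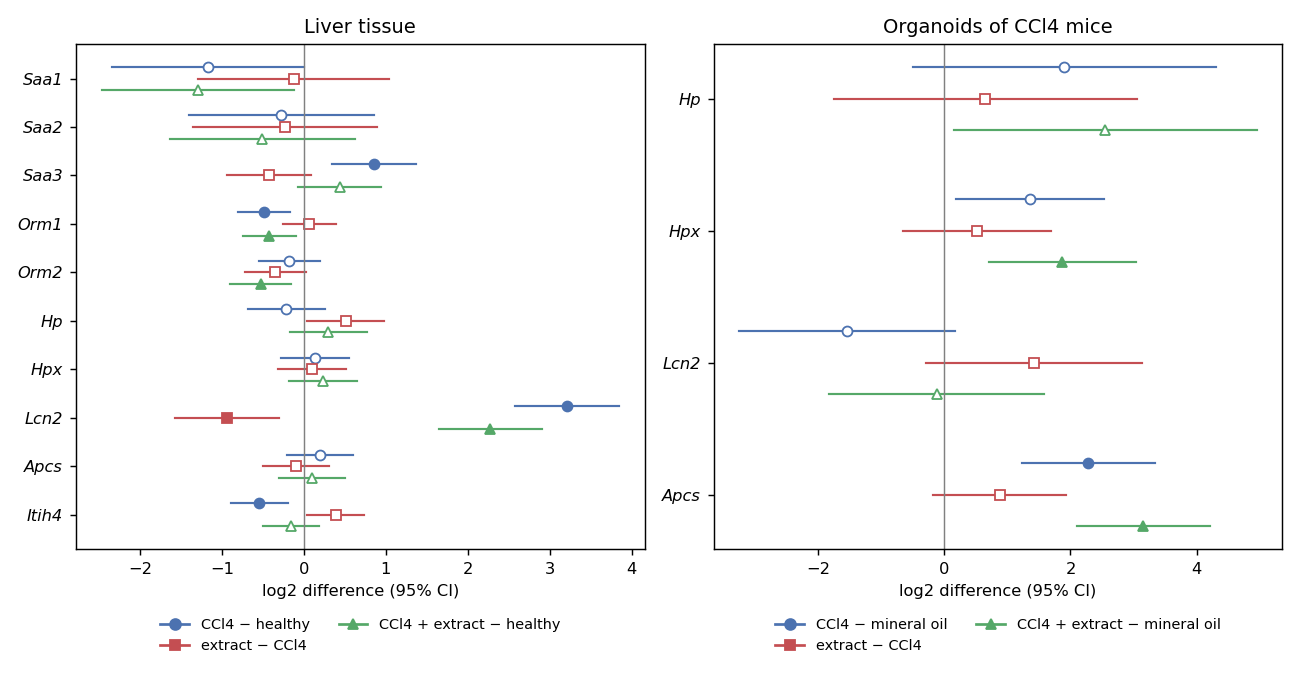
Log2 differences with 95% confidence intervals for each tested gene, in liver tissue (left) and the CCl4 organoid table (right); filled symbols passed the test. In liver, the Lcn2 intervals leave out 0 in all 3 comparisons (differences 3.21, -0.94 and 2.27), and in organoids Apcs, in 2 comparisons, and Hpx, in 1, have filled symbols.

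The CCl4 organoid table held little of most members. Saa2, Saa3, Orm1, Orm2 and Itih4 did not exceed 0.199 CPM in any of these 9 libraries, and Saa1 reached 6.90 CPM in mineral oil replicate 1 but at most 0.284 CPM in the other 8. These 6 did not enter the test. Of the 4 tested, only Lcn2 was abundant. It was at 76.7, 267 and 353 CPM in organoids of mineral oil mice, 21.8, 102 and 131 CPM in those of CCl4 mice and 211, 158 and 167 CPM in those of CCl4 mice given the extract. Mineral oil replicate 1 lay within the range of the CCl4 group. Organoids of CCl4 mice were thus lower in mean level (232 ± 141 against 84.9 ± 56.5 CPM), but the difference of -1.54 ± 0.74 did not pass the test (adjusted p = 0.134, where 40.2% of 14836 genes were called, 20.4% higher and 19.8% lower).

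Mineral oil replicate 1 stood apart from the other 2 of its group on the first principal component of the whole table (38.6 against 120 and 132). Without it, Lcn2 passed the test as lower in organoids of CCl4 mice (-2.21, adjusted p = 0.0149) and Hpx as higher (2.05, adjusted p = 2.07e-05). Hpx was at 8.65, 1.82 and 2.25 CPM with mineral oil, 7.75, 7.54 and 10.4 CPM in organoids of CCl4 mice and 12.2, 13.1 and 11.2 CPM with the extract. In the fit with all libraries its difference was 1.35 ± 0.51 for CCl4 (adjusted p = 0.0651) and 1.87 ± 0.51 for CCl4 with the extract, against mineral oil (adjusted p = 0.0236, where 34.4% of genes were called). The latter call held under 6 of 12 alternative settings and was lost without mineral oil replicate 2 (0.0752) or 3 (0.0766), or without any 1 of the 3 extract libraries (0.0624 to 0.0743).

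Apcs passed the test in both comparisons with mineral oil, at very low levels. It was at 0.0797, 0.0434 and 0.171 CPM with mineral oil, 0.415, 0.542 and 0.871 CPM in organoids of CCl4 mice and 1.49, 1.26 and 0.707 CPM with the extract. Every library of CCl4 mice was above the 3 mineral oil libraries, a separation seen for 45.4% of all genes without the extract and 50.2% with it. The log2 difference was 2.28 ± 0.46 for CCl4 (adjusted p = 0.00584) and 3.16 ± 0.46 with the extract (adjusted p = 0.00159). Apcs entered the test only through the 2 groups in which it is high, so its presence among the 4 tested is tied to that difference. Hp was at 0.159, 0.261 and 0.984 CPM with mineral oil, 0.228, 4.33 and 2.68 CPM in organoids of CCl4 mice and 3.68, 1.64 and 1.92 CPM with the extract. CCl4 replicate 1 lay within the mineral oil range, and neither difference from mineral oil was called (adjusted p = 0.183 and 0.0933). Without CCl4 replicate 1 the CCl4 difference was 3.13 (adjusted p = 0.0169). With 8, 12 and 46 reads with mineral oil, Hp too entered the test only through the groups in which it is high. Its differences from mineral oil are therefore descriptions.

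None of the 4 members was called for the extract in organoids of CCl4 mice, a comparison in which limma called 0 of 14836 genes, limma voom called 0, and 271 genes had an unadjusted p under 0.05. Lcn2 was nevertheless higher in all 3 libraries with the extract than in the 3 without (1.42 ± 0.74, interval -0.29 to 3.13), the opposite side from liver. Groups did not overlap for 13.8% of all genes. Those of Hpx did not either (0.52, interval -0.65 to 1.69), and Apcs (0.88) and Hp (0.65) overlapped.

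Around the members, Fga (0.643 to 13.4 CPM) and Fgb (0.122 to 3.55 CPM) rose and Cd14 (142 to 64.8 CPM) fell in organoids of CCl4 mice. Fga (58, 6 and 30 reads with mineral oil) and Fgb (14, 0 and 4 reads) entered the test only through the groups in which they are high. Their rises are therefore descriptions. In all, 2 of 14 positive acute phase genes rose and 2 fell, and without mineral oil replicate 1, 2 rose and 5 fell. Of 5 negative acute phase genes 4 rose, or 5 without mineral oil replicate 1, with Alb from 0.955 to 95.3 CPM and Rbp4 from 2.86 to 80.2 CPM. Alb (2, 67 and 64 reads with mineral oil) also entered the test only through the groups in which it is high. Of 10 receptors 6 fell and none rose, and without mineral oil replicate 1, 6 fell and 2 rose; Tnfrsf1b (-1.58), Lifr (-2.70) and Il1r2 (-2.26) had the smallest p. Jak1 (-0.94), Cebpb (-1.48), Stat3 (-0.45) and Socs3 (-0.64, adjusted p = 0.0278) fell, Cebpa rose (2.23) and Cebpd did not pass (adjusted p = 0.687). Of the 14 transducers and factors 3 rose and 5 fell, and without mineral oil replicate 1, 7 rose and 5 fell. With all libraries 20.4% of all genes were called higher and 19.8% lower for CCl4. The share of all genes called without mineral oil replicate 1 is not reported here. List counts given without that library therefore have no background to be set against. With the extract as well, 4 of 14 positive acute phase genes were higher than with mineral oil and 1 lower (4 and 3 without mineral oil replicate 1, 4 and 0 with the read totals alone); Fga reached 19.7 CPM and Fgb 4.67 CPM. Il6 had no read in any of these libraries and Il1b fell by 1.80 on the log2 scale, at 29 and 5 reads in the 2 groups. With so few reads, the Il1b difference is a description. Neutrophil markers summed to 1.73 to 3.87 and 0.560 to 2.10 CPM in the mineral oil and CCl4 groups, with 5 of 11 at 0 in each. Macrophage markers summed to 28.0 to 116 and 6.69 to 16.7 CPM, with 8 of 10 and 6 of 10 at 0, among them Adgre1 and C1qa in both groups. Hepatocyte markers summed to 1458 to 3249 and 2627 to 5433 CPM, but only 4 and 5 of the 10 reached a mean of 1 CPM. In the mineral oil and CCl4 groups 1 and 2 of them had no read. Of 7 tested, 2 were higher and 1 lower for CCl4 (5 and 1 without mineral oil replicate 1). Cholangiocyte markers summed to 7307 to 8386 CPM with mineral oil and to 5895 to 6330 CPM in organoids of CCl4 mice, with 3 of 7 called lower and none higher, and 2 higher and 3 lower without mineral oil replicate 1. Their part in these differences was not tested.

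The effect of CCl4 on Lcn2 differed between tissue and organoids. In a joint fit of both tables, the CCl4 difference of Lcn2 was 4.75 ± 0.85 log2 units greater in liver than in organoids (interval 2.94 to 6.57, adjusted p = 0.000268), positive in liver and, uncalled, negative in organoids. For Apcs it was 2.09 ± 0.49 units smaller in liver (log2 difference -2.09, interval -3.12 to -1.05, adjusted p = 0.00208), but Apcs entered the organoid test only through the groups in which it is high (4, 2 and 8 reads with mineral oil against 20, 26 and 49 in organoids of CCl4 mice), so this value is a description. This difference was called for 54.2% of 13116 genes tested in both, so the 2 of 4 members are near the background. Hpx (-1.22, adjusted p = 0.0676) and Hp (-2.12, adjusted p = 0.116) did not pass. Hp too entered the organoid test only through the groups in which it is high. The extract effect on Lcn2 was -2.35 ± 0.85 units apart (interval -4.17 to -0.54) but did not pass after adjustment (adjusted p = 0.114, where 7.08% of genes did, 4.67% lower in liver), and those of Apcs, Hpx and Hp did not either (0.261, 0.714 and 0.961). The control mice of the 2 tables are described differently, as healthy and as given mineral oil.

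The TGF-β1 table held Lcn2 at the top of the transcriptome. It was at 16007, 15537 and 358 CPM in untreated organoids, 18878, 16980 and 16611 CPM with TGF-β1 and 16690, 16210 and 258 CPM with TGF-β1 and the extract. Per kilobase it ranked 2nd, 1st and 1st of 20809 genes in the 3 groups. The 7 high libraries lie within 15537 to 18878 CPM, and replicate 3 of the untreated group and replicate 3 of the group given TGF-β1 and the extract lie far below them. Those 2 libraries stood apart on the first principal component of all genes, at 79.6 and 95.3 against -27.2 to -23.2 for the other 7, a component that held 62.1% of the variance. Organoids of mineral oil mice, whose table was normalized separately, held Lcn2 at 76.7 to 353 CPM, against 258 and 358 CPM in these 2 libraries.

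Saa3 and Hp were low in the same 2 libraries. Saa3 was at 293, 148 and 0.166 CPM in untreated organoids, 281, 200 and 192 CPM with TGF-β1 and 215, 133 and 0.0335 CPM with the extract as well. Hp was at 332, 231 and 2.45 CPM, then 174, 104 and 97.5 CPM, then 150, 85.5 and 1.21 CPM. Saa1 did not share this: the untreated library that stood apart had its highest value (16.3 CPM) and the other its lowest (0.167 CPM), against 0.578 to 2.72 CPM in the 7. Hpx was higher in the 2 libraries (2.19 and 3.25 CPM) than in the 7 (0.505 to 0.867 CPM). Orm1 did not exceed 0.921 CPM, and Saa2, Orm2, Apcs and Itih4 were too low to enter the test.

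**Figure D3:**
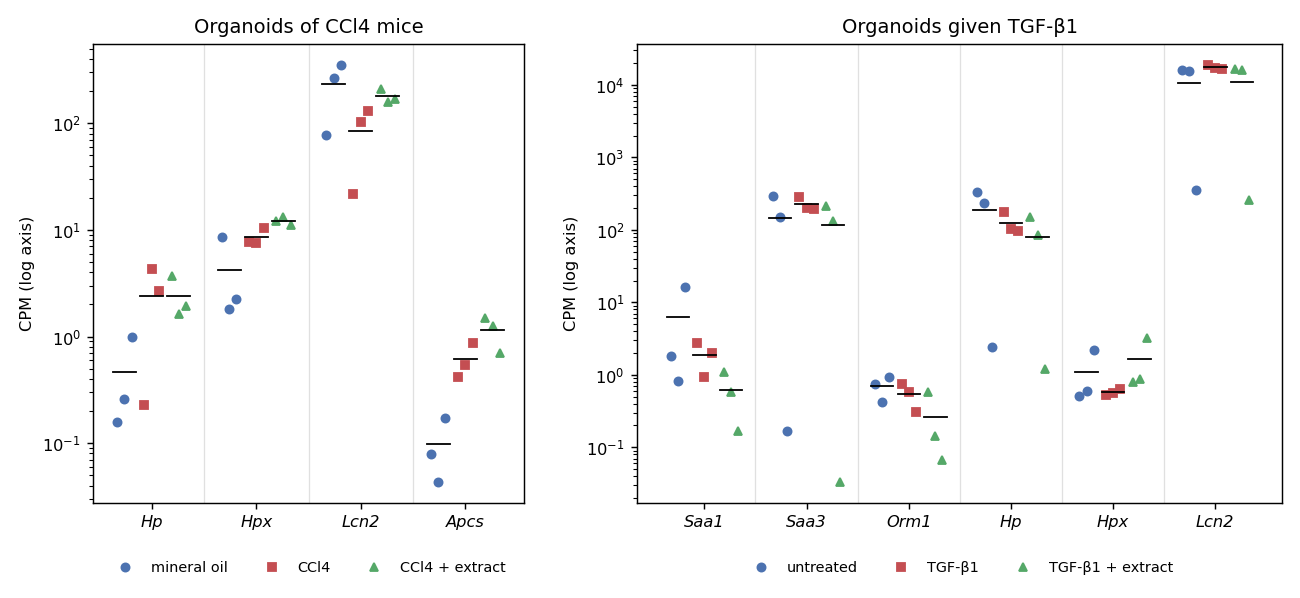
Each point is the CPM of 1 organoid library on a log axis and the bar is the mean of 3, for the tested genes of the CCl4 organoid table (left)  and of the TGF-β1 table (right). On the right, 1 untreated library and 1 library given TGF-β1 and the extract lie far under the others for Lcn2 (358 and 258 CPM), Saa3 and Hp.

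No member passed the test in the TGF-β1 table when all 9 libraries were used. The fit called 3 of 14125 genes for TGF-β1 (0.0212%), 0 for the extract after TGF-β1 and 2 for both treatments against untreated (0.0142%), while groups did not overlap for 30.0%, 13.8% and 14.1% of genes; limma voom called 1, 0 and 1, and 1747, 272 and 1303 genes had an unadjusted p under 0.05. The TGF-β1 difference was 1.97 ± 1.92 for Lcn2 (adjusted p = 0.712), 3.42 ± 3.52 for Saa3 (0.728) and 1.07 ± 2.22 for Hp (0.867), and the libraries that stand apart are part of these standard errors. Without both of them, Hp was lower with TGF-β1, at a mean of 125 CPM (n = 3) against 281 CPM (n = 2) in untreated organoids (log2 difference -1.20 ± 0.24, adjusted p = 0.00327). That is the opposite sign from the fit with all libraries, and leaving out these 2 libraries was chosen after seeing the data. Hp was lower also with TGF-β1 and the extract than in untreated organoids (118 CPM, n = 2, log2 difference -1.29 ± 0.26, adjusted p = 0.00598), and the difference between extract and TGF-β1 alone was -0.09 ± 0.24 (adjusted p = 0.966). In that fit 23.4% and 13.7% of genes were called in the comparisons with untreated organoids and 0 for the extract.

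Lcn2 and Saa3 were not called in the fit without both libraries either. Lcn2 differed by 0.15 ± 0.10 with TGF-β1 (adjusted p = 0.322), by -0.09 with the extract after TGF-β1 (0.902) and by 0.06 with both (0.775). Saa3 differed by 0.09 ± 0.24 (0.836), -0.39 (0.790) and -0.30 (0.511), and Saa1 by 0.49 (0.444), -1.07 (0.747) and -0.58 (0.468).

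Other acute phase genes were also low in the 2 libraries that stood apart; the 5 named next were picked after their values were seen. C3 (the central complement component) was at 64.7 and 39.4 CPM against 1892 to 2302 CPM in the 7, and Cp (ceruloplasmin, a copper-carrying ferroxidase) at 254 and 172 CPM against 3935 to 4781 CPM. Steap4, a metalloreductase, was at 2.89 and 3.33 CPM against 158 to 229 CPM. Lbp (550 and 596 CPM against 1255 to 1653) and Cd14 (371 and 299 CPM against 748 to 934) differed less. Il1rn did not follow, at 223 and 218 CPM against 175 to 218 CPM, and Crp was higher, at 25.0 and 16.6 CPM against 6.74 to 14.2 CPM.

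The factors that drive the response were mixed in these libraries. Cebpd was at 5.42 and 8.60 CPM against 33.3 to 49.4 CPM, and Cebpb at 19.6 and 14.2 CPM against 24.2 to 45.1 CPM. Stat3 was at 135 and 130 CPM, just under the range of 136 to 153 CPM in the other 7, and Socs3 at 6.76 and 8.5 CPM against 5.03 to 7.30 CPM. Il6 had 2 reads in 1 of the 9 libraries, and Il1b was at most 0.367 CPM in all. Tnf, which encodes tumour necrosis factor, was at 12.8 and 29.6 CPM in the libraries that stand apart against 91.0 to 116 CPM in the 7. Il1a was higher in both, at 25.1 and 68.3 CPM against 9.78 to 13.2 CPM, and Lif was at 27.9 and 162 CPM against 42.9 to 45.2 CPM; these 3 were picked after their values were seen. Among markers, those of neutrophils summed to 9.32 and 6.59 CPM against 55.3 to 71.9 CPM, almost all from S100a8 and S100a9, while Mpo and Elane had no read in any of the 9. Cholangiocyte markers summed to 10503 and 6471 CPM against 4672 to 5299 CPM, macrophage markers to 109 and 37.9 CPM against 15.8 to 29.2 CPM with 8 of 10 at 0, and hepatocyte markers to 252 and 220 CPM against 202 to 298 CPM. Most of that last sum is Ass1 (132 and 213 CPM against 192 to 283 CPM). The untreated library had more Apob (70.1 CPM against 0.343 to 3.31), Alb (35.0 against 4.52 to 13.1), Ttr (11.3 against 0.0386 to 0.324) and Cyp3a11 (3.57 against 0), while the other library had 6.54 CPM of Apob and no read of Alb; these genes were picked after their values were seen. Whether these moved the members was not tested. No test was made between the 2 libraries and the other 7, since the labels do not separate them.

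**Figure D4:**
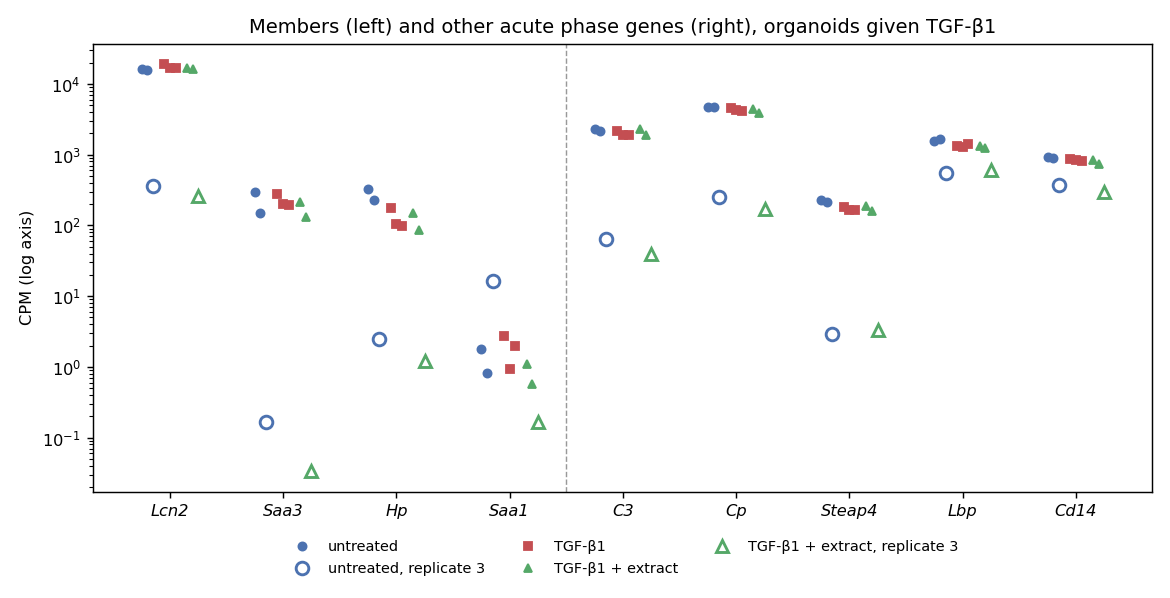
CPM of each library of the TGF-β1 table on a log axis, for 4 members (left of the dashed line) and 5 other acute phase genes (right); large open symbols are the 2 libraries that stand apart. They lie lowest for Lcn2, Saa3, Hp and the 5 other genes, but 1 of them is the highest for Saa1 (16.3 CPM).

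Without both libraries, 1 of 11 positive acute phase genes rose and 6 fell with TGF-β1, where 23.4% of all genes were called. With TGF-β1 and the extract none rose and 6 fell, where 13.7% of all genes were called. Both comparisons are with untreated organoids. All 9 libraries gave 0 calls on this list, in fits that called only 3 and 2 of 14125 genes. For the extract after TGF-β1 there were 0 calls on every pathway list with or without them.

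The genes most like each member in pattern, by the root mean square difference of centred log2 values over the 9 libraries of a table, differed between tables. In liver they were S100a4 (0.19), Gpr35 (0.27) and Slamf9 (0.28) for Lcn2, against a spread of 1.40 of Lcn2 itself. Saa1 and Saa2 were nearest to each other (0.42), followed by Mpv17l (0.55) and Grid1 (0.59) for Saa1 and by Ctrl (0.49) and Acp3 (0.51) for Saa2. Nearest to Saa3 was Cystm1 (0.11), to Orm1 Ak4 (0.09), to Hp Psen2 (0.13), to Hpx Maoa (0.07), to Apcs Stxbp6 (0.12) and to Itih4 Cideb (0.05). In the CCl4 organoid table, C3 was nearest to Hp (0.52), Vangl2 to Hpx (0.08) and Krt6a to Lcn2 (0.32). In the TGF-β1 table C3 (0.22), Htr4 (0.24) and Steap4 (0.26) were nearest to Lcn2, Chi3l1 (1.16), Kcns1 and Hp (1.85) to Saa3, and Cyp11a1 (0.44), Muc5b (0.45) and Kng2 (0.55) to Hp. The spread of the members themselves was 2.41 for Lcn2 and 4.47 for Saa3 there, with the 2 libraries that stand apart included.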

How the data were processed

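Libraries came from TRIzol-extracted RNA and a stranded TruSeq mRNA kit, per the labels' protocols. Per the notes on processing left by the submitters, mm10 was the build; aligner, counter and strand setting were not given in the sources used here. What the authors deposited is on a log2 scale, and the values themselves show log2 CPM of an effective library size (read total times a factor of 0.854 to 1.217) with a prior count of 2. Whole reads were recovered: 100% of values lay within 0.05 of a whole number, and rebuilt log2 values differed by at most 5.00e-09. CPM values printed are recovered reads per 1 M reads of the effective size, without the prior; per-kilobase levels use GENCODE transcript lengths. Depth was 44.5 to 64.8 M reads per library. No symbol was given for 1319 genes of each organoid table.

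Genes were tested when at least 3 libraries held the CPM of 10 reads in a median library and the table held 15 reads, which left 15037, 14836 and 14125 genes. The deposited log2 values were fitted with limma 3.58.1 (R 4.3.3; lmFit and eBayes with a trend, 3 group means per table, two-sided, Benjamini-Hochberg over all genes tested). Differences of effects were fitted over 18 libraries of 2 tables. The fits were tested on simulated data; tables were handled with Python 3.11.15 and pandas 2.3.3, and sequences aligned with Biopython 1.88. Alternatives were library size alone, no filter, a prior of 0.5, limma voom and only the 2 groups compared. Others were a replicate block, each library left out, and the libraries that stand apart left out. Leaving out both libraries that stand apart in the TGF-β1 table was chosen after seeing the data, for members and lists. For the lists, library size alone and leaving out mineral oil replicate 1 were also chosen after seeing the data.

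The members and lists were chosen with earlier results of these data known. Named were the members; for each list and comparison at most the 3 genes with the smallest p, and Il6, Il1b, Stat3, Socs3, Cebpb and Cebpd; cell type markers; and, for members of at least 2 CPM in some group, the nearest genes (1 is not reported here). Genes named beyond this rule are marked as picked after their values were seen, and Saa4 and Orm3 are also neighbours of members. The lists were positive and negative acute phase genes, ligands, receptors, signal transducers and factors, clearance genes and markers of hepatocytes, cholangiocytes, macrophages, neutrophils, stellate cells, endothelium, lymphocytes and blood. In CCl4 liver 1 of 5 endothelial and 2 of 5 lymphocyte markers were higher and 1 of 4 blood markers was lower.

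Replicate pairs of a group differed beyond counting noise (chi-square per gene 5.83 to 560 in 27 pairs), so none was counted as a duplicate. Deviations of same-numbered libraries were most correlated for untreated organoids and organoids given TGF-β1 and the extract (0.53, 0.58 and 0.72). Replicate 3 of each stands apart, so these correlations do not show whether replicate numbers pair samples.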

Additional observations from a re-analysis of the deposited data

Results flagged for a closer look

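The effect of CCl4 on Lcn2 differed between liver and organoids, by a test of the difference itself: the log2 difference was 4.75 higher in liver (adjusted p = 0.000268, limma), with all 3 CCl4 livers above the healthy ones and organoids of CCl4 mice lower in mean than those of mineral oil mice. It passed the test under 17 of 17 alternative settings, at 3.95 to 5.42.

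The effect of CCl4 on Apcs also differed, by -2.09 on the log2 scale (adjusted p = 0.00208, limma), with a difference of 0.20 in liver and 2.28 in organoids, where Apcs reached at most 1.49 CPM. Apcs entered the organoid test only through the groups in which it is high, so this difference is tied to the filter on low values and supports nothing further.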

How the results depend on the processing

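Over 68 pairs of a member and a comparison, 874 values were recomputed; 818 kept their side of the threshold, 30 lost a call, 25 gained one, and 37 values not called either way changed sign. The 1 that was called with the opposite sign was Hp for TGF-β1 against untreated organoids, at -1.20 without both libraries that stand apart. Counts of members called moved as follows. For the extract against CCl4 liver (1 in the main result) the count was 2 with library size alone, 0 with no filter, 0 with the replicate block, 2 with only the 2 groups compared and 0 to 2 with a library left out. For CCl4 with the extract against healthy liver (3) it was 1 with library size alone and 1 to 4 with a library left out. For CCl4 against mineral oil in organoids (1) it was 2 with library size alone, 2 with limma voom and 1 to 3 with a library left out, and for CCl4 with the extract against mineral oil (2) 1 to 2. Without both libraries that stand apart it was 1 in each comparison with untreated organoids (0). For CCl4 against healthy liver (4) it was 4 to 6 with a library left out, and for the difference of CCl4 effects (2) 2 to 3, and 3 with limma voom.

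With library size alone, the calls over all genes went from 4314 higher and 3829 lower to 7261 and 1384 for CCl4 against healthy liver, from 1403 and 1468 to 640 and 3600 for the extract, and from 3180 and 2048 to 3823 and 840 for CCl4 with the extract against healthy liver; the medians of all genes then stood at 0.38, -0.23 and 0.13. The same setting gave 4851 higher and 1929 lower, against 3527 and 3577, for the difference of CCl4 effects, 98 and 1634, against 316 and 612, for the difference of extract effects, and 3363 and 2114, against 2557 and 2546, for CCl4 with the extract against mineral oil.

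The correlations between same-numbered libraries were -0.15 to 0.14 in liver and -0.15 to 0.37 in the CCl4 organoid table. With 3 libraries per group, they cannot settle whether replicate numbers pair samples. The replicate block gave 4, 0 and 3 members called in the 3 liver comparisons, 1, 0 and 2 in the CCl4 organoid table, 0 in each comparison of the TGF-β1 table, and 2 and 0 for the differences of effects.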
